A study of Mus musculus with 6 samples.

Results

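Genes of neutrophil biology were followed through the infarcted mouse heart: the receptors Csf3r, Fpr1, Fpr2, Trem1 and Trem3, the secreted proteins Retnlg and Slpi, and the histamine-forming enzyme Hdc. They were taken by gene symbol and matched to the NCBI gene numbers of the deposited tables, where all 8 were listed among 17441 genes. Heart tissue from below the ligature was sequenced at 3 days, from male mice on a C57BL/6 background that were 12 weeks old by their labels and fell into 3 groups. WT Sham mice underwent the operation without ligation, WT MI mice had the left anterior descending coronary artery ligated, and the Card9 KO MI group had the same ligation in mice labelled as lacking Card9, a signalling adaptor of myeloid cells. There were 2 libraries per group, and the last group is called the labelled knockout. No sham-operated Card9 KO mice were among them, and in the labelled knockout against WT Sham the effects of genotype and of infarction cannot be told apart. Whether each library came from a single mouse was not given in the sources used here, so the p-values measure only the spread between these libraries.

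Neutrophils are short-lived granulocytes that are made in the bone marrow under granulocyte colony-stimulating factor (G-CSF) and are among the first blood cells to enter an infarct. They find injured tissue partly through formyl peptide receptors, which bind peptides released from bacteria and mitochondria, and TREM receptors amplify their activation through the adaptor Tyrobp. None of the genes is restricted to neutrophils, since monocytes, macrophages, epithelial cells or mast cells also express some of them.

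Values were FPKM, the fragments of a gene scaled by its transcript length and by the size of the library, so levels may be compared between genes per length. A gene absent from a library's table was taken as 0. None of 10 housekeeping genes, among them Actb, Gapdh and Tbp, was at 0 in any library. The depth, estimated from the steps between low FPKM values, lay between 3003106 fragments (WT Sham replicate 2) and 4253096 (Card9 KO MI replicate 1). Values below the worth of 3 fragments, which for a 2 kb transcript was 0.499 in the shallowest library and 0.353 in the deepest, lay near the limit of counting. The cardiomyocyte genes that mark the labelled tissue were abundant in every library, with Myh6 at an FPKM of 3454 or above.

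Card9 itself was read first as a check on the labels. In WT Sham its FPKM was 0.99 and 1.03, in WT MI it was 3.39 and 5.08, whereas the libraries labelled Card9 KO MI gave 9.85 and 6.94. The targeted gene was thus highest where the label names its loss, with both of these libraries above both WT MI libraries. The log2 difference in log2(FPKM + 1) was 0.85 ± 0.23 (SE), with an adjusted p of 0.112 in limma. Which exons the fragments came from cannot be read from a value per gene. Every direction given below for this group rests on its label.

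Csf3r, the receptor for G-CSF (mm9 chr4:125701794-125722219, plus strand), was the most abundant of the 8 genes per length in the infarct libraries. In WT Sham its FPKM was 1.54 and 1.31, in WT MI it was 28.8 and 14.5, whereas the libraries labelled Card9 KO MI gave 14.0 and 11.6. The infarct libraries all lay above the sham libraries, and WT MI was parted from the labelled knockout by the small step from 14.5 to 14.0. That step rested on the scaling for depth. With the shortest coding transcript, WT MI replicate 2 had about 143 estimated fragments and Card9 KO MI replicate 1 about 150. Mean FPKM was 21.6 ± 10.1 (SD, n = 2) in WT MI, 15.2-fold the 1.43 ± 0.163 of WT Sham. In bulk tissue, fewer cells of a type and less RNA per cell cannot be told apart. WT MI replicate 1 set most of the gap to the labelled knockout: the log2 difference was -0.64 with all libraries and -0.17 without that library.

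Fpr1 and Fpr2 encode formyl peptide receptors and lie next to each other on chromosome 17, facing away from each other with 3883 bases between them in mm9 (chr17:18013435-18020904, minus strand, and chr17:18024788-18030916, plus strand). Fpr1 was listed at 0 in both WT Sham libraries, WT MI had an FPKM of 2.81 and 2.89, whereas the libraries labelled Card9 KO MI had 0.18 and 0.73. Fpr2 stood at 0.25 and 0 in WT Sham, WT MI had 4.63 and 3.37, whereas the libraries labelled Card9 KO MI had 0.72 and 1.51. For both genes the groups did not overlap, and the labelled knockout lay between sham and WT MI. Mean FPKM in the labelled knockout was 16.0% of the WT MI mean for Fpr1 and 27.9% for Fpr2, the lowest shares among the 8 genes with all libraries. Without Card9 KO MI replicate 1 the log2 difference was -1.15 for Fpr1, -0.98 for Fpr2 and -1.10 for Slpi. The place of Fpr2 thus depended on that library. Without Card9 KO MI replicate 2 the difference was -1.71 for Fpr1 and -1.53 for Fpr2.

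The fragments behind these values were few. Fpr1 rested on about 30 estimated fragments over the WT MI libraries and 5 over the libraries labelled Card9 KO MI, a depth-adjusted ratio of 0.158 (exact 95% interval 0.048 to 0.412). Fpr2 rested on 36 and 10, a ratio of 0.264 (0.117 to 0.543), and on 1 fragment over both sham libraries. Such intervals cover counting error only and not the spread between mice. Members of the Fpr family resemble each other in sequence, and whether the counting used strand was not given in the sources used here, so reads shared between relatives cannot be told apart.

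The profiles of Fpr1 and Fpr2 were the most alike of any pair among the 8 genes, with a root mean square difference of 0.21 in centred log2(FPKM + 1) over the 6 libraries. Their upstream sequences are shown because the neighbours moved together; each gives the 250 bases before the RefSeq start in GRCm38.p6, read 5′ to 3′ on the strand of the gene (Fpr1 chr17:17883940-17884189, minus strand; Fpr2 chr17:17887574-17887823, plus strand). Capitals would mark a motif, and neither window held a match.
Fpr1: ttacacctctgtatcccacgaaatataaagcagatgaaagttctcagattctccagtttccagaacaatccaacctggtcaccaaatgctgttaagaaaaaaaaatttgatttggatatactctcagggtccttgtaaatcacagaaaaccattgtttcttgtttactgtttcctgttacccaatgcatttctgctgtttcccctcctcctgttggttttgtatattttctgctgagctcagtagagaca
Fpr2: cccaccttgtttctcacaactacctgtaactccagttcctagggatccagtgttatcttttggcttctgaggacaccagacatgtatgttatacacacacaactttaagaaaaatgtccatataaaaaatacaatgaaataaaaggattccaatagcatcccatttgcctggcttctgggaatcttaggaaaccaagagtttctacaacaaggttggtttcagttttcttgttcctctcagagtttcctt

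Trem1 and Trem3, receptors that amplify inflammatory signals, lie 852 bases apart on the plus strand of chromosome 17 (mm9 chr17:48371903-48386091 and chr17:48386944-48398207). Trem1 was listed at 0 in both WT Sham libraries, WT MI had an FPKM of 3.01 and 1.42, whereas the libraries labelled Card9 KO MI had 1.07 and 0.64. Trem3 was also listed at 0 throughout WT Sham, WT MI had 0.48 and 1.23, whereas the libraries labelled Card9 KO MI had 0.23 and 1.17. Trem1 separated the 3 groups, whereas for Trem3 the infarct groups overlapped and replicate 2 was the higher library in both. Trem3 rested on about 7 fragments in WT MI and 6 in the labelled knockout, so the ratio of 0.814 had an exact 95% interval of 0.226 to 2.83. A difference of Trem3 between the infarct groups was not detectable at this depth.

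**Figure D1:**
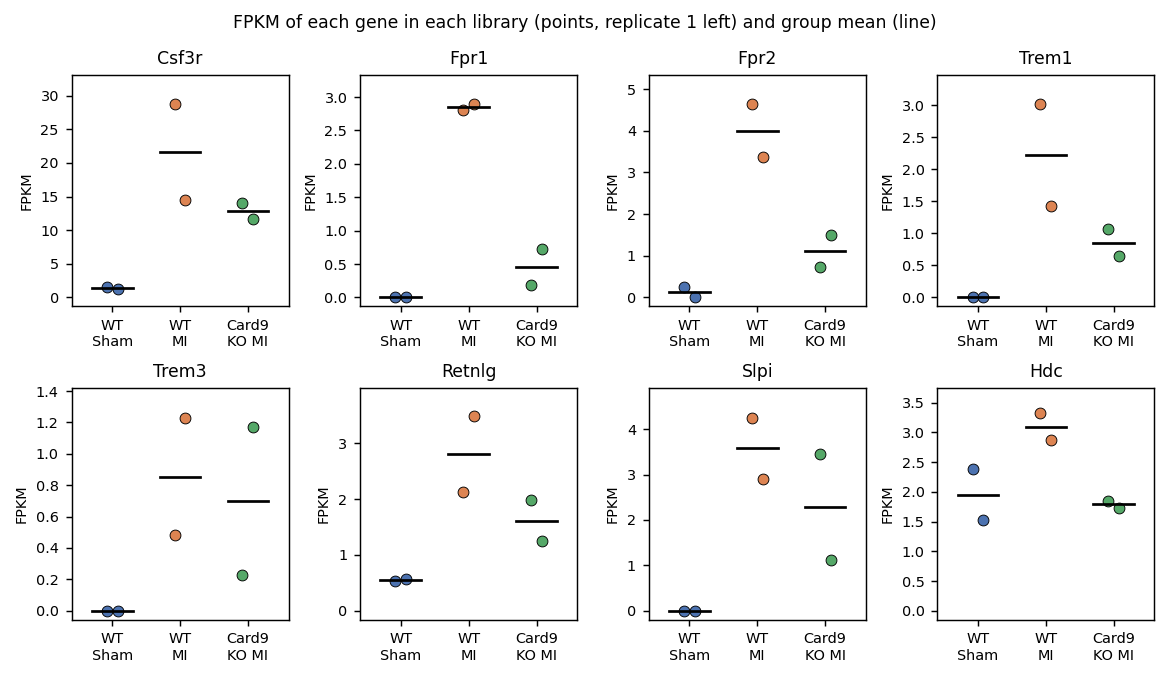
FPKM of each gene (vertical axis) in the 3 groups (horizontal axis); each point is a library, replicate 1 on the left, and each line is a group mean. Fpr1 and Fpr2 part the 3 groups, while Trem3 and Slpi overlap between the infarct groups.

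Retnlg, a secreted resistin-like protein (mm9 chr16:48872721-48874611, plus strand), stood at an FPKM of 0.54 and 0.56 in WT Sham, WT MI had 2.12 and 3.48, whereas the libraries labelled Card9 KO MI had 1.99 and 1.24. The infarct groups lay next to each other without overlap, separated by the step from 2.12 to 1.99, but about 5 fragments lay behind each of these values and the step is no more than the scaling for depth. Between the infarct groups the depth-adjusted ratio was 0.585, with an exact 95% interval of 0.21 to 1.52. The sham values were worth about 2 fragments in all, and the 5.09-fold higher mean in WT MI corresponded to a depth-adjusted ratio of 5.06 with an exact 95% interval of 1.14 to 46.2.

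Slpi, a secreted inhibitor of neutrophil elastase and other serine proteases (mm9 chr2:164179806-164214831, minus strand), was listed at 0 in both WT Sham libraries, WT MI had an FPKM of 4.25 and 2.91, whereas the libraries labelled Card9 KO MI had 3.46 and 1.11. The infarct groups overlapped. Without Card9 KO MI replicate 2 their log2 difference was -0.02, against -0.56 with it.

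Hdc forms histamine from histidine (mm9 chr2:126419403-126445035, minus strand). Its FPKM in WT Sham was 2.39 and 1.52, WT MI had 3.32 and 2.88, whereas the libraries labelled Card9 KO MI had 1.85 and 1.73. Hdc was the most abundant of the 8 genes in sham tissue, and the labelled knockout lay within the sham range while both WT MI libraries were above it. Its mean was 3.10 ± 0.311 (SD, n = 2) in WT MI and 1.79 ± 0.0849 in the labelled knockout, which was 57.7% of WT MI.

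Short motifs of factors that act in myeloid cells were searched on both strands of the 250 bases before the start in the 7 genes with a RefSeq window (Trem3 had none). The motifs were C/EBP as TTGCNNAA, PU.1 as GAGGAAGT, AP-1 as TGANTCA and kappaB as GGGANTTTC. Over 32851 windows of that length, 9.56% held the C/EBP motif, 2.44% PU.1, 6.75% AP-1 and 0.941% kappaB. Of the 7 genes, 2 held C/EBP and none held another motif. These 2 windows are shown with the match, which reads on the opposite strand in both, in capitals (GRCm38.p6; Retnlg chr16:48872358-48872607, plus strand; Slpi chr2:164356508-164356757, minus strand). A match describes letters and not a bound site.
Retnlg: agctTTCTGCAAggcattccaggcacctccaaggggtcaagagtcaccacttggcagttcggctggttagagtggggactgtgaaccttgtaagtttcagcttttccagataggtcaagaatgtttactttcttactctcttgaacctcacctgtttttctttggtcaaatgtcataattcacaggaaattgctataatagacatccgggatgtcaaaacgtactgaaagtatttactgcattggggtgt
Slpi: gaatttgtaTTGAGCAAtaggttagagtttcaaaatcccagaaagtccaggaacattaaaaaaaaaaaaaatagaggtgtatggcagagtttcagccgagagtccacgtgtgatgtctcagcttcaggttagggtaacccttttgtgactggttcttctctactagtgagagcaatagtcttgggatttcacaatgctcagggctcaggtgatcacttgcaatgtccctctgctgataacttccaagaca

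The number of fragments differed widely among the genes. Csf3r rested on 143 to 290 estimated fragments in the WT MI libraries with its shortest coding transcript, and the remaining 7 genes together on 108 in replicate 1 and 87 in replicate 2. In WT Sham those 7 genes rested on 20 and 12 fragments together, so their sham values were the least precise.

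**Figure D2:**
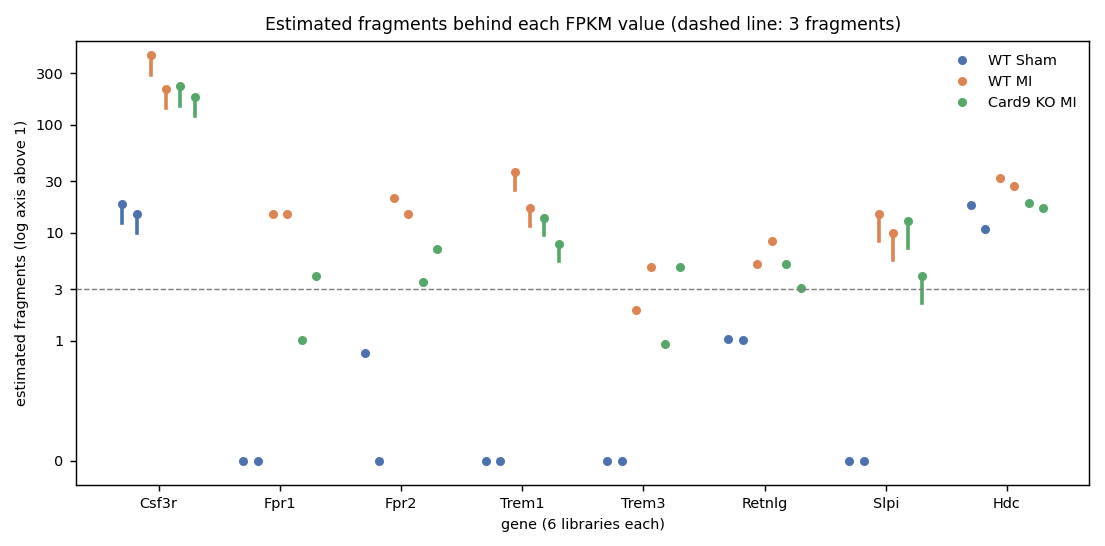
Estimated fragments behind each FPKM (vertical axis, log scale above 1) for the 6 libraries of each gene, the sham libraries on the left, then WT MI, then the labelled knockout; the point uses the longest coding transcript, the line reaches down to the shortest, and the dashed line marks 3 fragments. Csf3r has over 100 fragments in every infarct library, and Fpr1, Fpr2, Trem3 and Slpi fall below 5 in some infarct library, as does Retnlg.

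Infarction was compared with sham in WT mice by limma on log2(FPKM + 1) over the 13120 genes that reached an FPKM of 1 in 2 or more libraries. Higher in WT MI at an adjusted p below 0.05 were 6 of the 8 genes, against 27.7% of all genes tested, and none was lower, against 9.39%. In all 8 both WT MI libraries lay above both sham libraries, which held for 48.3% of all genes tested. Of the 8, 6 passed the filter through infarct libraries alone, so a rise was built into their testing and their count is a description. The log2 differences were 3.15 ± 0.28 (SE) for Csf3r (adjusted p 0.0002), 1.94 for Fpr1 (0.00113), 2.15 for Fpr2 (0.00092), 1.64 for Trem1 (0.00457), 2.18 for Slpi (0.00277) and 1.27 for Retnlg (0.00743). Trem3 at 0.86 ± 0.35 (0.0916) and Hdc at 0.49 ± 0.21 (0.115) did not pass. Retnlg lost its call without WT MI replicate 2 (adjusted p 0.0535). Where sham was listed at 0 the fitted difference depended on the added FPKM and is no bound, which also touches the median of the 8 (1.79, against 0.19 over all genes tested). The study screened genes with the NOIseq method at a fold of at least 2 and a probability of at least 0.8. That screen was rebuilt here without the NOIseq software and with 0 replaced by 0.005, so its calls may differ from the study's. The rebuilt screen called 4 of the 8 higher (Csf3r, Fpr1, Fpr2 and Slpi), against 6.06% of the genes it covered.

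Scaling moved the background of this comparison. The median log2 difference of all tested genes was 0.19 as deposited, -0.03 after upper-quartile scaling and -0.07 after quantile normalization, and the share of calls that were higher was 74.7%, 51.1% and 48.6%. The 6 genes were called higher under both. The rise of Hdc shrank from 0.49 to 0.31 after upper-quartile scaling and to 0.13 after quantile normalization, with an adjusted p of 0.293 and 0.654 (range over the settings tried 0.0676 to 0.654).

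The question of the knockout was addressed by comparing the labelled knockout with WT MI. None of the 8 genes passed an adjusted p of 0.05 in limma, where 0.587% of all tested genes were called lower and 0.816% higher. At an unadjusted p below 0.05 there were 4 (Fpr1, Fpr2, Trem1 and Hdc), all lower, against 8.57% of all tested genes that were lower at that level. The rebuilt screen called 0 of the 8, where it called 0.332% of its genes lower and 0.728% higher. In 6 of the 8 genes both labelled libraries lay below both WT MI libraries, which held for 21.9% of all tested genes. For Retnlg and Csf3r, both among the 6, the separation rested on depth scaling alone. The fitted log2 difference was below 0 for all 8, against 43.7% of all tested genes, with a median of -0.60 against 0.04 over all tested genes. Fpr1 is counted in the 4, the 6 and the 8, though it passed the filter through WT MI alone and its lower value was partly required. The 8 genes were also chosen with earlier results of these data known, so these counts are a description. Of all calls in this comparison 58.2% were higher, and 46.4% after upper-quartile scaling.

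Fpr1 and Fpr2 came nearest to the threshold. Fpr1 differed by -1.43 ± 0.26 (SE; adjusted p 0.0503, range over the settings tried 0.0266 to 0.288) and Fpr2 by -1.26 ± 0.28 (0.0732, range 0.0457 to 0.345). With an added FPKM of 5 both passed, and Fpr1 also passed after quantile normalization. Fpr1 was tested only through its WT MI values, so its lower value elsewhere was partly required by the filter. Trem1 differed by -0.76 ± 0.30 (0.216), Csf3r by -0.64 ± 0.28 (0.261), Hdc by -0.55 ± 0.21 (0.208), Slpi by -0.56 ± 0.36 (0.429) and Retnlg by -0.53 ± 0.26 (0.308). Without WT MI replicate 1 the difference was -0.39 for Trem1, -0.17 for Csf3r and -0.35 for Slpi. Without WT MI replicate 2 it was -0.27 for Retnlg and -1.11 for Csf3r, and without Card9 KO MI replicate 2 it was -0.32 for Retnlg and -0.02 for Slpi. Without Card9 KO MI replicate 1 it was -1.10 for Slpi. These sizes thus depended on single libraries. Trem3 differed by -0.15 ± 0.35 (0.854) and changed sign when WT MI replicate 2 or Card9 KO MI replicate 1 was left out, to 0.14 and 0.26. In a design of 2 against 2 libraries the smallest p of an exact two-sided permutation test is 0.333.

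The libraries labelled Card9 KO MI were also set against WT Sham, which shares its libraries with the first comparison. Higher at an adjusted p below 0.05 in limma were 5 of the 8 genes, against 34.8% of all genes tested. In 7 both labelled libraries lay above both sham libraries, against 51.6%. For Fpr1 and Trem3 this separation rested on about 1 fragment in Card9 KO MI replicate 1, where sham was listed at 0. For Fpr2 it rested on about 3.5 fragments in that library against 0.9 in WT Sham replicate 1. Here too 6 of the 8 passed the filter through infarct libraries alone, among them Slpi, Fpr2, Trem1 and Retnlg, so the count is a description. The rebuilt screen called 1 (Csf3r), against 8.55% of its genes. The median over the 8 was 0.81, against 0.24 over all genes tested. Their log2 differences were 2.51 ± 0.28 for Csf3r (adjusted p 0.0003), 1.62 ± 0.36 for Slpi (0.00721), 0.89 ± 0.28 for Fpr2 (0.0293), 0.88 ± 0.30 for Trem1 (0.0423) and 0.74 ± 0.26 for Retnlg (0.0474). For Retnlg about 8 fragments in the labelled knockout stood against 2 in sham, a depth-adjusted ratio of 2.96. Its exact 95% interval of 0.59 to 28.6 included 1, so the counts alone did not establish this rise. For Fpr2 about 10 fragments stood against 1, a ratio of 7.39 with an interval of 1.05 to 321. The values for Trem3 (0.71, adjusted p 0.131), Fpr1 (0.51, 0.141) and Hdc (-0.07, 0.816) did not pass. Fpr1 passed with an added FPKM of 0.1 (adjusted p 0.0498, range over the settings tried up to 0.523). Csf3r and Slpi passed in each fit with a library left out. Fpr2 lost its call without WT Sham replicate 2 (adjusted p 0.125) and without Card9 KO MI replicate 2 (0.153). Trem1 lost its call without WT Sham replicate 1 (0.112) or 2 (0.115) and without Card9 KO MI replicate 1 (0.19) or 2 (0.0628). Retnlg lost its call without WT Sham replicate 1 (0.125) or 2 (0.12) and without Card9 KO MI replicate 1 (0.234). After upper-quartile scaling 3 genes passed and after quantile normalization 2; the share of all calls that were higher was 70.9%, then 49.2% and 45.5%, and the median of all tested genes was 0.24, then -0.02 and -0.09.

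**Figure D3:**
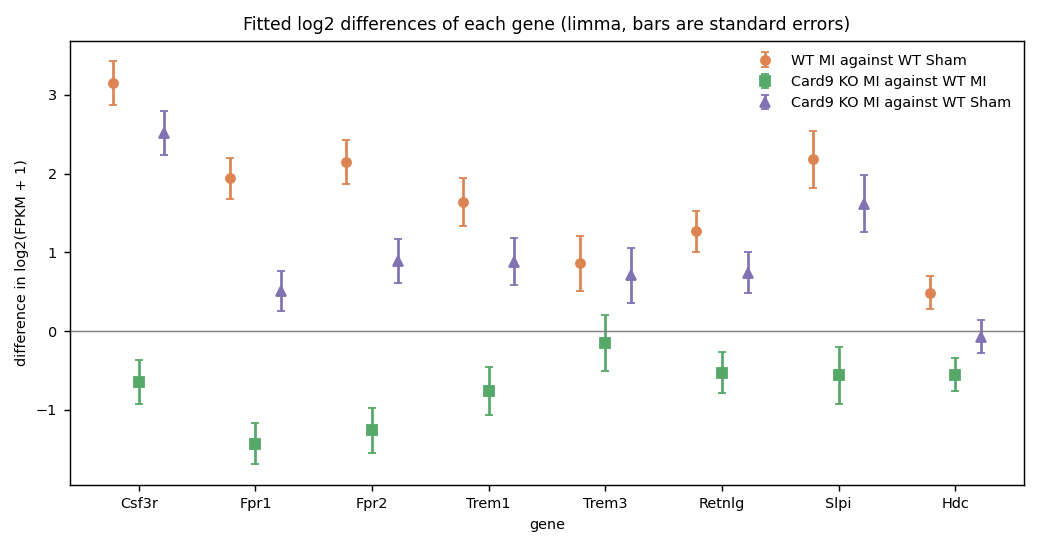
Fitted difference in log2(FPKM + 1) (vertical axis) of each gene for the 3 comparisons; points are limma estimates and bars are standard errors. All 8 squares, for Card9 KO MI against WT MI, lie below 0, from -1.43 for Fpr1 to -0.15 for Trem3.

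The partners of the receptors were described from lists. Of the G-CSF signalling list, 10 of 13 genes were tested; against WT Sham 7 were higher in WT MI, against 27.7% of all genes tested, and 1 was lower, against 9.39%, and none was called between the infarct groups. Csf3, which encodes G-CSF, was listed at 0.37 in WT MI replicate 1 and at 0 in the other libraries. Socs3, a feedback inhibitor of cytokine receptors, stood at 4.94 and 3.11 in WT Sham, WT MI had 26.7 and 19.7, whereas the libraries labelled Card9 KO MI had 19.4 and 19.1. Of the formyl peptide list, 4 of 12 genes were tested; each of the 4 was called higher in WT MI against WT Sham (27.7% over all genes tested) and none between the infarct groups. Saa3 reached an FPKM of 1 in infarct libraries alone, so its rise was built into its testing. Anxa1, a ligand of formyl peptide receptors, stood at an FPKM of 62.9 and 67.6 in WT MI, while the libraries labelled Card9 KO MI had 132 and 88.9. For Anxa1 the labelled knockout was thus the higher infarct group, with an adjusted p of 0.233.

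Of the TREM list, 6 of 7 genes were tested and all 6 were called higher in WT MI against WT Sham (27.7% over all genes tested), with none called between the infarct groups. Treml2 and Treml4 reached an FPKM of 1 in infarct libraries alone, so their rise was built into their testing. Tyrobp, the adaptor of Trem1 and Trem3, stood at an FPKM of 117 and 109 in WT MI, while the libraries labelled Card9 KO MI had 197 and 142. Trem2, a relative found on macrophages, had 25.1 and 34.2 in WT MI, whereas the labelled knockout had 66.4 and 44.1. Both labelled libraries thus lay above both WT MI libraries for Tyrobp and Trem2, the reverse of Trem1, at adjusted p of 0.139 and 0.103. Of the resistin list, 2 of 4 genes were tested. Cap1, described as a resistin receptor, was called higher in WT MI against WT Sham, against 27.7% of all genes tested. Its log2 difference was 1.65 ± 0.12 (SE, adjusted p 8.6e-05 in limma). Retnla differed by -1.18 ± 0.55 and was not called (adjusted p 0.134). Between the infarct groups none of the list was called.

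Of the list of WAP domain relatives of Slpi, serine proteases, their inhibitors and Grn, 4 of 14 genes were tested. In the labelled knockout against WT MI 3 were called higher, against 0.816% of all genes tested. These were Serpinb1a, an inhibitor of neutrophil serine proteases (FPKM 16.6 and 13.1 in WT MI, 45.9 and 47.2 in the labelled knockout, log2 difference 1.59, adjusted p 0.00946), Wfdc1 (0.88, 0.0337) and Grn (0.68, 0.0487). Wfdc1 and Grn lost their call in each fit with a library left out (highest adjusted p 0.213 and 0.289) and Serpinb1a in 4 of 6 (highest 0.0708). The neutrophil proteases Elane and Ctsg were not listed in any library and Prtn3 did not exceed an FPKM of 1.2. Of the histamine list, 3 of 8 genes were tested. Slc22a3, a transporter of histamine and other amines, was called lower in WT MI against WT Sham (-0.91, adjusted p 0.0178), against 9.39% of all genes tested. Some fits with a library left out lost this call, and over all such fits the difference was -1.11 to -0.71. Between the infarct groups none of the list was called.

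**Figure D4:**
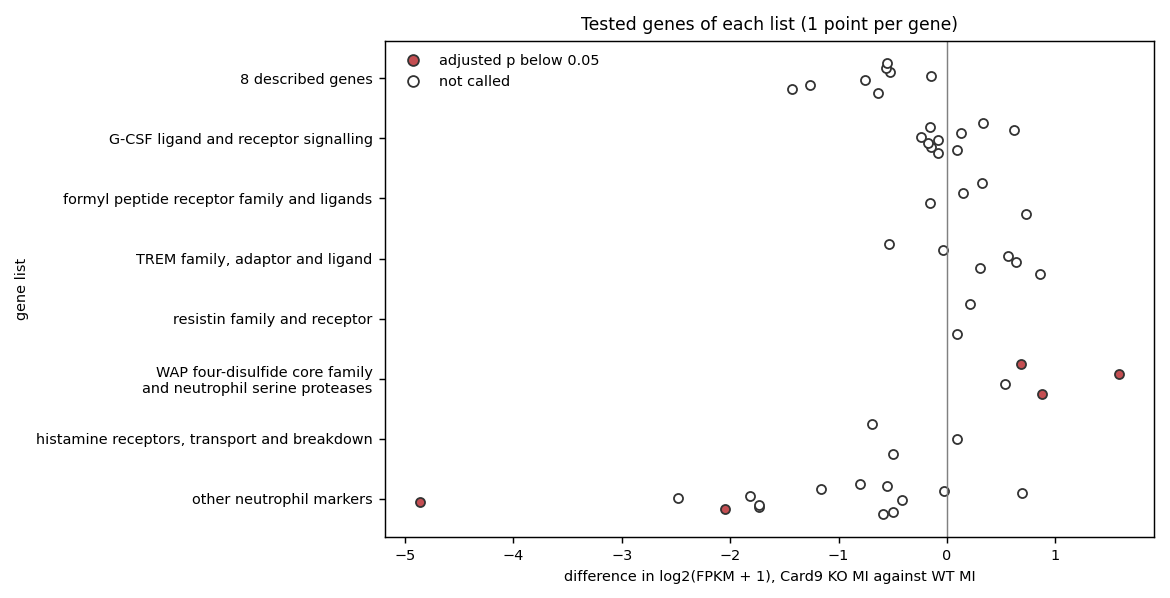
Difference in log2(FPKM + 1) between the labelled knockout and WT MI (horizontal axis) for the tested genes of each list (vertical axis); each point is a gene and filled points have an adjusted p below 0.05. The 8 described genes of the top line lie at or below -0.15, and the WAP and protease list lies above 0.

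Other neutrophil markers moved beside the 8 genes. Of 29 markers, 20 were listed in some library and 14 were tested; Ly6g, which defines mouse neutrophils, Cxcr1 and the granule genes Camp, Elane and Ctsg were listed in none, and Mpo reached 0.09. In WT MI against WT Sham 13 were higher, against 27.7% of all genes tested, and 1 was lower. Of the 14, 8 were below an FPKM of 1 in both sham libraries and passed the filter through infarct libraries alone, so a rise was built into their testing. The lower marker was G0s2, which also went the other way between the infarct groups: its FPKM was 46.0 and 36.8 in WT Sham, WT MI had 24.0 and 18.8, whereas the labelled knockout had 30.95 and 39.3. Between the labelled knockout and WT MI, 2 were called lower (Lcn2 and Mmp9), against 0.587% of all genes tested, and Mmp9 kept its call in 1 of 6 fits with a library left out, Lcn2 in 6. A difference below 0 was found for 13 of 14, against 43.7% of all genes tested, with a median of -0.98. Stfa2l1 and Asprv1 reached an FPKM of 1 in WT MI alone, so their lower value in the labelled knockout was required by the filter; without these 2 the counts were 11 of 12 and the median was -0.69. Lcn2, Mmp9, S100a8 and S100a9 are named in the study's heat map of these libraries, so their values here are not independent of that choice. Without these genes 0 of 10 were called and the median was -0.57, or -0.53 when Stfa2l1 and Asprv1 were also left out. The summed FPKM of the list was 56.1 and 46.1 in WT Sham, WT MI had 583 and 352, whereas the libraries labelled Card9 KO MI had 121 and 107. Without G0s2, set apart after its values were seen, the sums were 10.1 and 9.35 in WT Sham, WT MI had 559.5 and 333, whereas the labelled knockout had 90.3 and 67.8. By its mean the most abundant gene of the list was Lcn2, which lay below G0s2 in WT Sham and in the labelled knockout. The sums without Lcn2 and G0s2 were 291 and 129 in WT MI against 83.3 and 60.5 in the labelled knockout.

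Markers of other cells moved as well. Of 12 macrophage markers, all were tested; between the labelled knockout and WT MI 1 was called higher (Cx3cr1; 0.816% over all genes tested) and 1 lower (Lyve1; 0.587%), and both lost their call in each of 6 fits with a library left out. Their summed FPKM was 295 and 263 in WT Sham and 833 and 1022 in WT MI. The libraries labelled Card9 KO MI had 1756 and 1303, with C1qb the most abundant by its mean. Of 7 monocyte markers, 1 was called lower, against 0.587% of all genes tested. This was Chil3, also known in neutrophils, the most abundant by its mean though not in WT Sham or the labelled knockout. Some fits with a library left out lost its call, and over all such fits its log2 difference was -2.66 to -2.07. The monocyte sums were 153 and 131 in WT MI against 106 and 111 in the labelled knockout. Without Chil3 they were 66.3 and 73.8 against 92.7 and 98.9. Of 7 fibroblast markers, 3 were called higher (0.816% over all genes tested), namely Col1a1, Col1a2 and Postn. Most fits with a library left out lost these calls. Over all such fits the log2 differences were 0.8 to 1.32 for Col1a1, 0.84 to 1.34 for Col1a2 and 1.38 to 1.76 for Postn. The fibroblast sums were 1474 and 1996 in WT MI against 3176 and 3050 in the labelled knockout, with Col1a1 the most abundant by its mean. Of 9 erythroid markers 5 were tested. Against WT Sham 4 of them were called higher in WT MI (27.7% over all genes tested), with a median of 1.43, and none in the labelled knockout (34.8%). Between the infarct groups none was called and all 5 had a difference below 0 (43.7% over all genes tested), with a median of -0.83. Their sums were 1750.2 and 778 in WT Sham, WT MI had 2926 and 4586, whereas the labelled knockout had 2823 and 1445, with Hba-a1 the most abundant. Of 9 cardiomyocyte markers, against WT Sham 7 were called lower in WT MI (9.39% over all genes tested), with a median of -0.74, and 9 in the labelled knockout (14.3%), with a median of -0.91. Their sums were 47354 and 48800.5 in WT Sham, WT MI had 29637 and 30192, whereas the labelled knockout had 24606 and 28499, with Actc1 the most abundant by its mean. The part of these cells in the result was not tested.

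**Figure D5:**
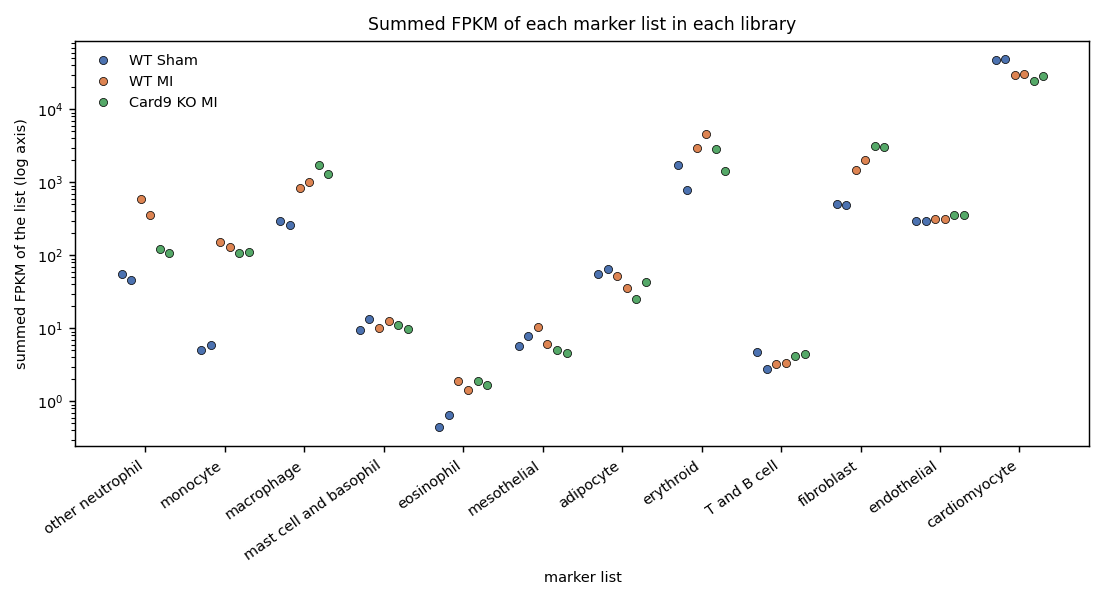
Summed FPKM of each marker list (vertical axis, log scale) in each library; the 6 points of a list are, from left, the sham, WT MI and labelled knockout libraries. Other neutrophil markers sum highest in WT MI and macrophage and fibroblast markers sum highest in the libraries labelled Card9 KO MI.

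For Hdc, which mast cells and basophils also express, 2 of 13 mast cell and basophil markers were tested and none was called between the infarct groups. The sums of the list lay between 9.35 and 13.5 in all 6 libraries, with Gata2 the most abundant by its mean. These sums joined genes that moved in opposite directions in WT MI against WT Sham. There Kit was called higher (1.04, adjusted p 0.00799 in limma), against 27.7% of all genes tested, while Gata2 differed by -0.42 and was not called (0.151). Ms4a2, Mrgprb2, Mcpt8 and Prss34 were listed in none, and Cpa3 had an FPKM of no more than 1.14. Between the infarct groups no tested gene was called for eosinophil (1 of 5 tested, Prg2 and Epx listed in none), mesothelial (2 of 9), adipocyte (4 of 8), T and B cell (2 of 6), endothelial (6 of 6) or cardiomyocyte markers (9 of 9).

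Among the tested genes outside the 8, those with profiles nearest to each of the 8 were found by the same root mean square difference over the 6 libraries. They were Sirpb1c (0.25), Mmp8 (0.26) and Igfbp3 (0.27) for Csf3r, whose own profile had a root mean square of 1.39. For Fpr1 they were Gal (0.23), Ankrd2 (0.25) and Apod (0.27), and for Fpr2 Ankrd2 (0.19), Mmp3 (0.27) and Wdr92 (0.27). For Trem1 they were Lilra6 (0.17), Cd177 (0.18) and Utp18 (0.20), and for Trem3 Slc25a14 (0.08), Iglon5 (0.13) and Cd69 (0.14). The remaining sets were Comtd1 (0.11), Slc22a4 (0.12) and Rpp25 (0.16) for Retnlg, Mcemp1 (0.13), Clec4e (0.16) and Ms4a8a (0.17) for Slpi, and Riox2 (0.06), Fbxl5 (0.08) and Flot1 (0.09) for Hdc. Mcemp1, for example, stood at an FPKM of 4.88 and 2.96 in WT MI, while the libraries labelled Card9 KO MI had 3.54 and 1.3, close to Slpi in each library. With 6 libraries and 13120 genes, near profiles are a description only.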

How the data were processed

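Poly(A) RNA was sequenced per the labels, and reads were mapped to mm9 with BWA and Bowtie2, whose versions were not given in the sources used here. The authors deposited FPKM values per NCBI gene number and library; the annotation behind them and the use of strand were not given in the sources used here. Symbols were matched for 17390 of 17441 gene numbers. The 13120 genes that reached an FPKM of 1 in 2 or more libraries were fitted with limma 3.58.1 in R 4.3.3 (lmFit and eBayes with trend) on log2(FPKM + 1), the 3 groups in one fit without covariates, with Benjamini-Hochberg adjustment over all genes tested. A log2 difference on this scale understates the change of low genes. Depth was estimated from genes with a single transcript in the GENCODE annotation of mm9. There 74.7% to 80.3% of low values came within 0.15 of a whole fragment, so limma was not fitted to rebuilt counts. Exact binomial intervals of ratios did use rounded estimated fragments, for genes with a single coding length, and carry the error of that estimate. Python 3.11.15, numpy 2.4.6, pandas 2.3.3, scipy 1.17.1 and matplotlib 3.10.9 were used. The fit, the screen and the depth estimate were tested on simulated data. Named genes were the 8 genes, Card9, the most abundant or called genes of the lists, and the 3 nearest profiles outside the 8 for each of them. Csf3, Prtn3, Mpo, Cpa3, Retnla and genes not listed were named after their values were seen. Upper-quartile scaling used all listed genes. The members and lists were chosen with earlier results of these data known.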

Additional observations from a re-analysis of the deposited data

How the results depend on the processing

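Of the 8 genes, 6 were called in WT MI against WT Sham and 1 with a mean FPKM of at least 5, a filter that only Csf3r passed; with a library left out the count was 5 to 6, and the rebuilt screen called 4. For the labelled knockout (Card9 KO MI) against WT MI the count was 0, 2 with an added FPKM of 5 and 1 after quantile normalization, and 0 with any library left out. For these libraries against WT Sham the count was 5, 6 with an added FPKM of 0.1, 4 without a filter, 2 with an added FPKM of 5, 1 with a mean FPKM of at least 5, 3 after upper-quartile scaling, 2 after quantile normalization and 1 in the rebuilt screen, and 2 to 5 with a library left out. The cause was not tested, other than the filter leaving 1 gene. Trem3 in the labelled knockout against WT MI was -0.56 to 0.26 with a library left out, above 0 at 0.14 without replicate 2 of WT MI and at 0.26 without replicate 1 of the labelled knockout. Hdc in the labelled knockout against WT Sham was -0.28 to 0.15 with a library left out, the latter without replicate 1 of WT Sham, and -0.51 after quantile normalization. Card9 stayed higher in the labelled knockout than in WT MI, from 0.53 to 1.08, in every setting that tested it; it did not pass the filter on a mean FPKM of 5. With the replicate number as a replicate block the counts were 6, 0 and 4 and Card9 differed by 0.85; deviations of same-numbered libraries correlated at 0.002, -0.008 and 0.02, so the numbers were not taken to pair the samples. A library left alone in its group was assumed to vary like the others. Depth limits the genes below about 5 fragments most.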
